A study of Mus musculus with 2 samples.

Results

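Killer cell lectin receptors are C-type lectin-like membrane proteins of natural killer (NK) cells and of some T cells. The 7 genes described here, Klrb1c, Klrc1, Klrc2, Klrd1, Klre1, Klrg1 and Klrk1, were chosen by name and found by their symbols, as 7 of the 32285 genes counted in each cell. The count tables held 26 genes with a Klr symbol, and the other 19 are used for comparison.

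The study asked how blocking TIGIT, an inhibitory receptor of T and NK cells, alters the leukocytes of a distant tumor after microwave ablation (MWA). MC38 colon cancer cells were grown on both flanks of male C57BL/6 mice, and the right tumor was ablated when it had reached about 300 mm3. CD45+ leukocytes were sorted from the left tumor, which had not been ablated, on day 8 after MWA and sequenced with the 10x Genomics 3′ method, which counts transcripts by unique molecular identifiers (UMIs). The MWA library came from mice with ablation. The study's MWA group for tumor growth and flow cytometry also received an isotype control antibody, which is not restated for the sequenced mice. The MWA plus TIGIT library came from mice with ablation that received anti-TIGIT antibody into the peritoneum every 3 days from day 1 after ablation, 3 times by the labels and more often by the study's methods. The number of mice behind each library is not given in the sources used here. Each group is a single library, so no difference between the groups could be tested. All intervals below are 95% intervals that cover counting error only, not the variation between mice or libraries.

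The MWA library held 10217 cell barcodes with 66152465 UMIs and the MWA plus TIGIT library 10190 barcodes with 78751205 UMIs, and 37 barcode sequences occurred in both. After filtering, 9231 and 9127 cells remained, with medians of 5282 and 6277 UMIs. Cell classes were rebuilt by clustering without any Klr gene and named from fixed marker lists that hold no Klr gene, so that no class was built on or named by the genes described. The class names may therefore differ from those of the study. Of the 18358 kept cells, 7851 fell into 11 named NK and T cell classes.

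NK-like cells numbered 171 in the MWA library and 118 in the MWA plus TIGIT library. All 16 NK markers were detected in them, with Ncr1, Tyrobp and Styk1 among the leading genes, which also included the granzyme genes Gzmc and Gzmf. The CD8 effector-like class held 468 and 776 cells and was led by Gzma, Ccl5 and Trav16, a T cell receptor variable segment. The CD8 exhausted-like class held 297 and 208 cells and was led by Ccl1, Gzmf and Nrgn. There were also 562 and 522 CD8 cycling-like, 139 and 146 CD8 interferon-induced-like, 349 and 241 Gpr18 and 138 and 164 Dapl1 CD8 stem-like cells. The other T cells were 894 and 754 CD4 conventional-like, 745 and 627 regulatory T-like, 165 and 120 Fcer1g γδ T-like and 123 and 124 Il17a γδ T-like cells. Fcer1g, Il17a, Gpr18 and Dapl1 stand here for classes that have them among their 10 leading genes, though not always first. A minimum of 300 CPM of the CD8 genes, set after the data had been seen, kept the 165 and 120 Fcer1g γδ cells and an unnamed cluster of 64 and 50 cells led by heat shock genes out of the CD8 classes.

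NK cells read the surface of other cells through pairs of inhibitory and activating receptors, and the balance of both sets whether they kill. CD94, encoded by Klrd1, forms a dimer either with inhibitory NKG2A, encoded by Klrc1, or with activating NKG2C, encoded by Klrc2, and both dimers bind Qa-1, the product of H2-T23. NKG2D, encoded by Klrk1, is an activating receptor for stress-induced ligands, NK1.1, encoded by Klrb1c, is the classical NK marker of C57BL/6 mice, the Klre1 product pairs with Klri1 or Klri2, and Klrg1 is an inhibitory receptor for cadherins.

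The 7 genes together reached their highest level in NK-like cells, at 2606 CPM (UMIs of the gene per 1000000 UMIs of the class) in the MWA library and 3001 CPM in the MWA plus TIGIT library. CD8 exhausted-like cells followed with 1516 and 1792 CPM, then Fcer1g γδ T-like cells with 1318 and 1404 CPM and CD8 effector-like cells with 1197 and 953 CPM. Il17a γδ T-like cells were lowest, with 119 and 76.8 CPM.

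Klrd1, the shared CD94 subunit, was highest in NK-like cells, with 1009 CPM (943–1079) in the MWA library and 1214 CPM (1129–1305) in the MWA plus TIGIT library. CD8 exhausted-like cells came next with 889 CPM (845–935) and 978 CPM (925–1034). In both libraries these top 2 classes differed from each other and from the Fcer1g γδ T-like cells below them, at 622 CPM in each library, beyond counting error. Below these lay CD8 effector-like cells with 508 and 373 CPM, which differed from the classes on either side. The cycling-like, interferon-induced-like and both stem-like CD8 classes lay between 181 and 293 CPM, and among them no neighbors in the order differed. CD4 conventional-like cells held 78.4 and 74.6 CPM and regulatory T-like cells 4.37 and 1.06 CPM.

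Klrc1, the inhibitory partner, had another order. It was highest in CD8 exhausted-like cells, with 258 CPM (235–284) and 275 CPM (247–306), and second in CD8 effector-like cells, with 182 CPM (160–206) and 241 CPM (222–261). NK-like cells came after these with 149 CPM (124–177) and 168 CPM (137–204). They did not differ from CD8 effector-like cells in the MWA library but were lower in the MWA plus TIGIT library. From NK-like cells down to the Gpr18 stem-like cells, at 85.5 and 85.1 CPM, no pair of neighbors differed.

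Klrc2, the activating partner, lay at 90.6 CPM (71.6–113) and 121 CPM (94.7–151) in NK-like cells. In the MWA library the Fcer1g γδ T-like cells, with 95.8 CPM, did not differ from NK-like cells. CD8 exhausted-like cells held 52.6 and 51.5 CPM and CD8 effector-like cells 49.4 and 53.5 CPM, and these did not differ from each other. Klrc1 and Klrc2 share part of their sequence. Of the 50-base words in the last 500 bases of their transcripts, where 3′ reads fall, 43.5% of Klrc1 words and 20.5% of Klrc2 words also occur in Klrc2, Klrc1 or Klrc3. The division of UMIs between them is therefore uncertain. The same holds for Klrb1c, which shares 17.8% of such words with other Klrb1 genes and with Gm44511, which overlaps it on the same strand, while Klrd1, Klre1, Klrg1 and Klrk1 shared 0 words.

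Klrk1 was highest in NK-like cells, with 388 CPM (347–432) and 478 CPM (424–536). Its second class was not the same in the libraries. In the MWA library CD8 effector-like cells came next, with 282 CPM (254–311), and CD8 exhausted-like cells held 184 CPM (164–205). In the MWA plus TIGIT library CD8 exhausted-like cells came next, with 307 CPM (277–338), and CD8 effector-like cells held 181 CPM (165–198). The Fcer1g γδ T-like cells, with 251 and 293 CPM, lay between these classes in both libraries and did not differ from the one directly above.

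Klrb1c and Klre1 were the members most concentrated in NK-like cells. Klrb1c reached 418 CPM (376–464) and 432 CPM (382–487) there and 94.4 and 135 CPM in Fcer1g γδ T-like cells, and it was at or below 15.5 CPM in each other NK or T cell class. The Il17a γδ T-like cells held 0 Klrb1c UMIs in both libraries, where 3 UMIs would be 7.62 and 7.20 CPM. Klre1 reached 522 CPM (474–572) and 554 CPM (497–616) in NK-like cells, followed by Fcer1g γδ T-like cells with 133 and 184 CPM and CD8 exhausted-like cells with 118 and 172 CPM, which did not differ from each other.

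Klrg1 departed from the other members. It was highest in regulatory T-like cells, with 176 CPM (157–196) and 199 CPM (179.6–220.4), where each other member lay at or below 4.37 CPM. CD8 effector-like cells followed with 56.8 and 46.8 CPM and NK-like cells with 29.0 and 34.2 CPM, and these differed from each other in the MWA library only. CD8 exhausted-like cells held 5.85 and 2.34 CPM, and Dapl1 stem-like cells 0 UMIs in both libraries.

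**Figure D1:**
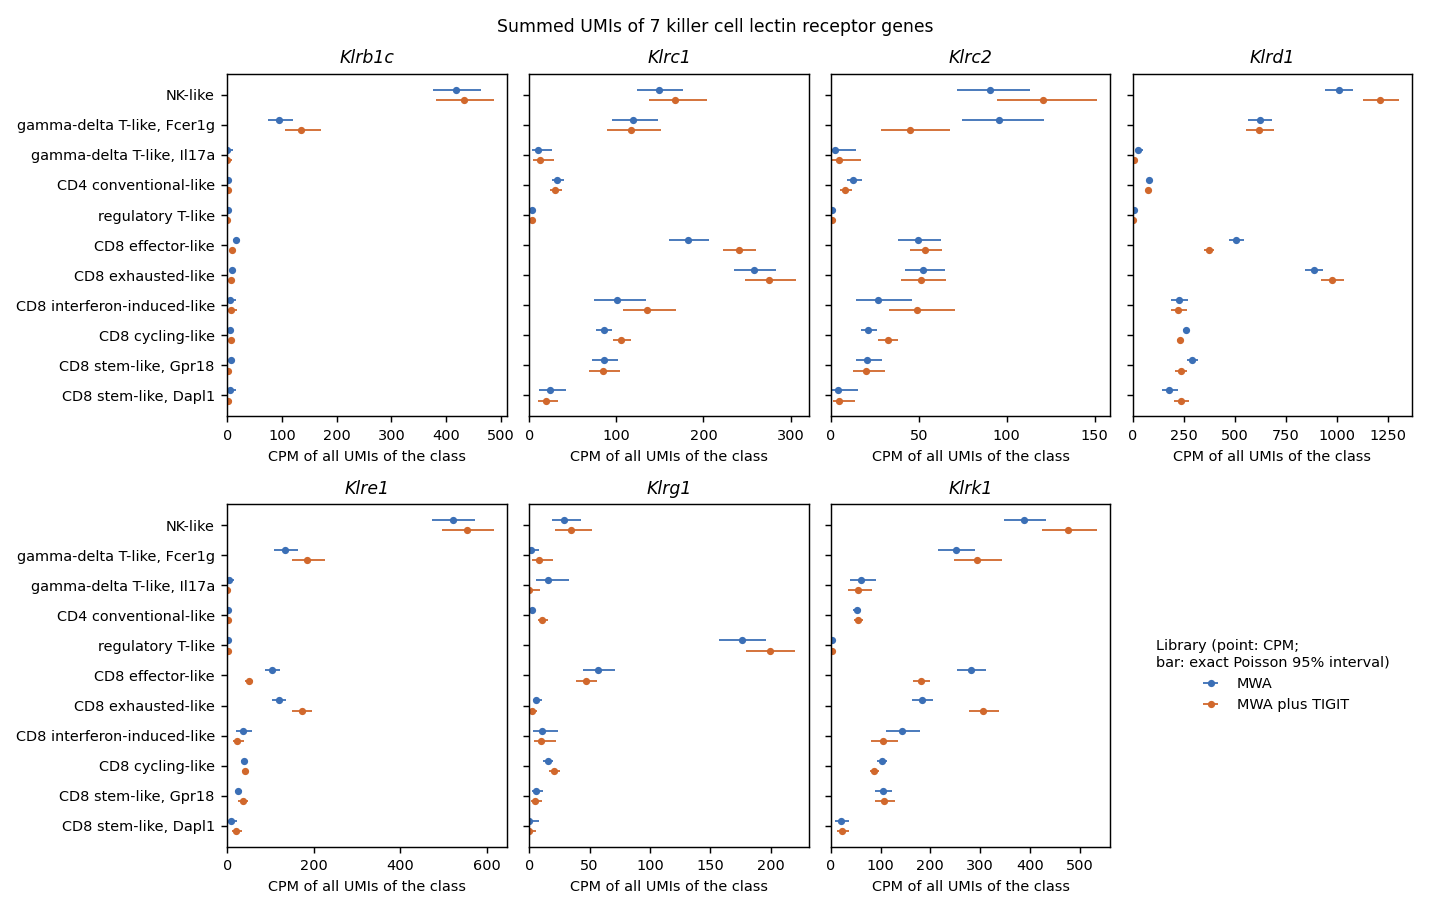
Level of each gene in 11 NK and T cell classes of the MWA and MWA plus TIGIT libraries, in CPM on a linear axis from 0. Points are summed levels and bars exact Poisson 95% intervals; Klrd1 reaches 1009 and 1214 CPM in NK-like cells, and Klrg1 176 and 199 CPM in regulatory T-like cells.

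The share of cells with a UMI was compared after each cell had been thinned to 1000 UMIs, which left out 0 and 1 NK-like cells. Klrd1 was then found in 66.7% (59.1–73.7) and 68.4% (59.1–76.7) of NK-like cells, against 91.8% and 94.1% without thinning. B-like cells, which should lack these receptors, had Klrd1 in 0% and 1.64% of thinned cells, and neutrophil-like cells in 2.0% and 0%. Their median depths were 1868 and 2425 UMIs and 963 and 1160 UMIs, against 4397 and 4535 UMIs in NK-like cells. Klrg1 was found in 12.5% (10.2–15.2) and 13.6% (10.97–16.6) of thinned regulatory T-like cells, and in 25.5% and 30.9% without thinning. B-like cells held no Klrg1 UMI in 79 and 61 thinned cells, which allows a share of up to 4.56% and 5.87%.

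CD94 needs a partner at the surface, so the thinned cells were also read for Klrd1 detected together with Klrc1 or Klrc2. Klrk1, which is not among the partners of CD94 named above, was read in the same way. Among CD4 conventional-like cells with a Klrd1 UMI, 15.8% (7.48–27.9) and 13.5% (4.54–28.8) held a Klrc1 UMI, against 1.70% (0.932–2.83) and 2.41% (1.41–3.83) of those without. The intervals did not overlap in either library. In NK-like cells the shares with Klrc1 were 14.9% and 18.8% among cells with Klrd1, against 12.3% and 16.2% among those without. In CD8 effector-like cells they were 15.6% and 21.3%, against 15.9% and 17.5%. The intervals in both of these classes overlapped in each library. Over the 22 combinations of class and library, of which 1 had no thinned cell with Klrd1, the share with Klrc1 was higher among cells with Klrd1 in 15, with intervals apart in 3. For Klrk1 it was higher in 16, with intervals apart in 5. For Klrc2 it was higher in 9, with intervals apart in 0. These counts depended on depth, and with cells thinned to 2000 UMIs Klrc2 was higher in 14 and Klrk1 apart in 8. In NK-like cells the share with Klrk1 was 29.8% and 40% among cells with Klrd1 and 31.6% and 43.2% among those without, which overlapped. Cells of a class can differ in state and depth, and their part in these shares was not tested.

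Klrg1 was set against 16 genes of effector and memory state. In CD8 effector-like cells of the MWA library, 84.0% of the 25 cells with Klrg1 also held Gzma, a granzyme gene, against 39.7% of the 438 without. In the MWA plus TIGIT library the shares were 66.7% and 32.5%. The intervals were apart in both libraries. Tbx21, which encodes the transcription factor T-bet, was found in 20% and 2.28% in the MWA library, with intervals apart, but in 3.03% and 4.64% in the MWA plus TIGIT library, where they overlapped. In all, 2 and 1 of the 16 genes stood apart in CD8 effector-like cells, and 0 and 0 in regulatory T-like cells and in NK-like cells, of which 8 and 5 held Klrg1.

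In NK-like cells the MWA plus TIGIT library had values close to those of the MWA library. All 7 members were measured with at least 20 UMIs and 7 of 7 were higher in the MWA plus TIGIT library, with log2 ratios from 0.05 for Klrb1c to 0.41 for Klrc2 and a median of 0.24. 0 of 7 passed 1.5-fold in either direction, while of the 5876 genes measured in these cells 12.9% were past 1.5-fold higher and 6.84% past 1.5-fold lower, with a median log2 ratio of 0.08. Among genes with at least 100 UMIs, as 6 of the 7 members had, these shares were 3.08% and 0.80%. The interval excluded 0 for Klrd1, at 0.27 (0.12 to 0.41), and Klrk1, at 0.30 (0.07 to 0.53). Both intervals included 0 with edgeR's TMM factors, which left 5 of 7 members higher. Those factors moved every log2 ratio by −0.14 in NK-like, −0.13 in Fcer1g γδ T-like, −0.11 in CD4 conventional-like, −0.15 in CD8 exhausted-like, −0.15 in CD8 cycling-like and −0.17 in Gpr18 stem-like cells, and by −0.04 in CD8 effector-like cells.

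In CD8 exhausted-like cells 1 of 6 measured members was past 1.5-fold higher in the MWA plus TIGIT library, against 13.6% of 7855 genes, and 0 were past 1.5-fold lower, against 3.76%. With at least 100 UMIs a gene these shares were 5.25% and 0.77%, against 1 and 0 of the 5 members with this many UMIs. That member was Klrk1, the NKG2D gene, with 184 CPM in the MWA library and 307 CPM in the MWA plus TIGIT library. The intervals of these levels did not overlap, and the log2 ratio was 0.74 (0.52 to 0.96). It was 0.59 with TMM factors, at the border of 1.5-fold, and 0.58 (0.17 to 0.99) under the study's upper limit of UMIs per cell, below 1.5-fold. Klre1 held 118 CPM and 172 CPM, also without overlap, with a log2 ratio of 0.54 (0.26 to 0.82). Klrd1 had a log2 ratio of 0.14 (0.03 to 0.25), and −0.02 with TMM factors, so it had no direction under both scalings. Klrc1, Klrc2 and Klrb1c overlapped between the libraries, with log2 ratios of 0.09, −0.03 and, on 14 and 8 UMIs, −0.39. Klrg1 was below 20 UMIs. At a finer resolution the CD8 exhausted-like cells formed a cluster led by Gzmf and Gzmd, of 208 and 118 cells. The other cluster, led by Ccl1 and Csf2, held 99 and 100 cells. The part of this make-up in the ratios was not tested.

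In CD8 effector-like cells Klrk1 and Klre1 had ratios of the opposite sign, as had Klrd1 without TMM factors. Here 3 of 7 members were past 1.5-fold lower in the MWA plus TIGIT library, against 5.92% of 8243 genes, and 0 were past 1.5-fold higher, against 9.2%. With at least 100 UMIs a gene these shares were 1.43% and 3.19%, against 2 and 0 of the 6 members with this many UMIs. Klre1 held 103 CPM (86.8–122) in the MWA library and 49.98 CPM (41.7–59.5) in the MWA plus TIGIT library, without overlap, and a log2 ratio of −1.05 (−1.40 to −0.69). Klrk1 held 282 and 181 CPM, also without overlap, with a log2 ratio of −0.64 (−0.84 to −0.44), which was −0.49 (−0.68 to −0.31) and below 1.5-fold when the Klr genes were kept among the features for clustering. In finer clusters of this class Klrk1 stood at −1.01 in the first and −0.22 in the second, where the interval included 0. The remaining member, Klrb1c, rested on 21 UMIs in each library and its interval included 0. Klrd1 was lower by less than 1.5-fold, at 508 and 373 CPM, with a log2 ratio of −0.45 (−0.59 to −0.30). Klrc1 was higher, at 182 and 241 CPM, with intervals that did not overlap and a log2 ratio of 0.40 (0.19 to 0.62). In the first and largest finer cluster of this class, taken after seeing the data, its interval included 0, at 0.20 (−0.11 to 0.51). In the second Klrc1 stood at 0.59 (0.27 to 0.91), which excluded 0. With the cells of all CD8 classes pooled, the log2 ratio was −0.03 for Klrk1 and −0.03 for Klre1.

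The receptor repertoire of this class also differed between the libraries. A Trav16 UMI was found in 6 of 468 CD8 effector-like cells of the MWA library, or 1.28% (0.472–2.77), and in 265 of 776 of the MWA plus TIGIT library, or 34.1% (30.8–37.6). Without these cells the log2 ratio was −0.44 (−0.80 to −0.07) for Klre1, −0.40 (−0.61 to −0.18) for Klrk1 and −0.18 (−0.33 to −0.02) for Klrd1, and 0 members were past 1.5-fold. Klrc1 stood at 0.41 (0.17 to 0.65) without them.

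Within the MWA plus TIGIT library the cells with and without a Trav16 UMI were then compared, a division chosen after the data had been seen. Klre1 lay at 4.44 CPM (1.21–11.4) in the 265 CD8 effector-like cells with Trav16 and at 75.0 CPM (62.3–89.4) in the 511 without. Klrd1 lay at 232 CPM (202–266) and 449.7 CPM (418–483), and Klrk1 at 121 CPM (99.4–146) and 214 CPM (192–237). The intervals of these 3 genes were apart, as were those of Klrg1, at 21.1 CPM (12.7–33.0) and 60.9 CPM (49.6–74.1), and of Klrb1c, at 1.11 CPM (0.0281–6.19) and 12.2 CPM (7.44–18.8). Klrc1 overlapped, at 244 CPM (213–279) and 239 CPM (216–264), as did Klrc2, at 55.5 and 52.4 CPM. The share of all genes with intervals apart between these cells is not given here, so this describes the members only. Median depths were 3272 and 3069 UMIs. In CD8 cycling-like cells of the same library, Klre1 lay at 6.87 CPM (2.23–16.02) in the 122 cells with Trav16 and 47.7 CPM (40.6–55.8) in the 400 without. The interferon-induced-like class did not share this, with 51.0 CPM (22.0–100.4) in 37 cells and 11.6 CPM (3.75–26.96) in 109, which overlapped. Klrc1 was higher in cells with Trav16 in both of these classes with intervals apart, at 154 CPM (127–185) against 95.1 CPM (84.9–106) in cycling-like and 261 CPM (187–354) against 90.1 CPM (64.1–123) in interferon-induced-like cells. In cycling-like cells Klrd1 was lower with Trav16, at 114 CPM (90.8–141) against 259 CPM (242–277), while Klrk1, at 71.4 and 90.3 CPM, and Klrg1, at 20.6 and 20.7 CPM, overlapped. In interferon-induced-like cells Klrd1, at 255 and 213 CPM, and Klrk1, at 153 and 87.8 CPM, were higher with Trav16 and overlapped. The MWA library held only 6 CD8 effector-like cells with Trav16, in which Klre1 lay at 251 CPM (68.4–643), against 101 CPM (85.1–120.02) in the 462 without, and these overlapped. A cell without a Trav16 UMI may still carry that segment, since a transcript can be missed.

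Other NK and T cell classes held few differences past 1.5-fold whose interval excluded 0. The shares of all genes past 1.5-fold higher and lower were 15.5% and 7.54% in Fcer1g γδ T-like, 8.95% and 3.15% in CD8 cycling-like and 8.52% and 3.48% in CD4 conventional-like cells. In Fcer1g γδ T-like cells Klrc2 held 95.8 CPM (74.6–121) in the MWA library and 45.0 CPM (28.5–67.5) in the MWA plus TIGIT library, without overlap, with a log2 ratio of −1.09 (−1.84 to −0.39). In CD8 cycling-like cells Klrc2 held 21.2 CPM (16.96–26.2) and 32.4 CPM (27.03–38.4), with a log2 ratio of 0.61 (0.21 to 1.02) that came below 1.5-fold with TMM factors, at 0.46, and without cells that hold a Trav16 UMI, at 0.52. The intervals of the cycling-like levels did not overlap either. In CD8 interferon-induced-like cells 0 intervals lay below 0, but 1 did with TMM factors and 2 without cells that hold a Trav16 UMI. Without those cells 2 members were past 1.5-fold lower, against 1 with all cells, and with all cells 6.23% of all genes were. The share of all genes with intervals below 0 is not given here, nor the share past 1.5-fold without those cells. Klre1 in cells without Trav16 lay at 36.2 CPM (21.1–58.0) in the MWA library and 11.6 CPM (3.75–26.96) in the MWA plus TIGIT library. Klrk1 lay at 141 and 87.8 CPM.

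Klrg1 in CD4 conventional-like cells had the largest ratio of any member, on few UMIs. It held 6 UMIs or 2.0 CPM (0.735–4.36) in the MWA library and 29 UMIs or 10.6 CPM (7.11–15.2) in the MWA plus TIGIT library, without overlap and with a log2 ratio of 2.41 (1.11 to 3.97). With CD4 cells taken by single marker genes in place of clusters the log2 ratio was 0.18 (−0.33 to 0.70), on 59 and 75 UMIs, so the difference depended on how the cells were chosen. These UMIs came from 4 and 19 cells, of which 1 and 1 held a UMI of Foxp3. Regulatory T markers, which mark the class where Klrg1 is highest, were higher in the MWA plus TIGIT library for 8 of 12, with summed levels of 1366 and 1459 CPM and 0 markers at 0. Over the 8913 genes measured in this class the median log2 ratio was 0.11, so most of all genes were higher as well. Cd4 and Izumo1r, 2 of the 12, are also on the marker list of CD4 conventional cells. Foxp3 lay at 3.34 and 6.22 CPM and Capg, the most abundant in the MWA plus TIGIT library, at 258 CPM (240–277) and 354 CPM (332–377). Izumo1r lay at 20.3 CPM (15.6–26.1) and 40.2 CPM (33.1–48.5). The intervals of Capg and of Izumo1r were apart. The 4 lower markers were Tnfrsf9, at 105 CPM (94.1–118) and 68.4 CPM (59.0–79.0), with intervals apart, Ctla4, at 128 and 113 CPM, Tnfrsf4, at 311 and 294 CPM, and Ccr8, at 6.67 and 5.85 CPM. Their part in the Klrg1 ratio was not tested. In regulatory T-like cells themselves Klrg1 overlapped between the libraries, with a log2 ratio of 0.18 (−0.04 to 0.40).

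**Figure D2:**
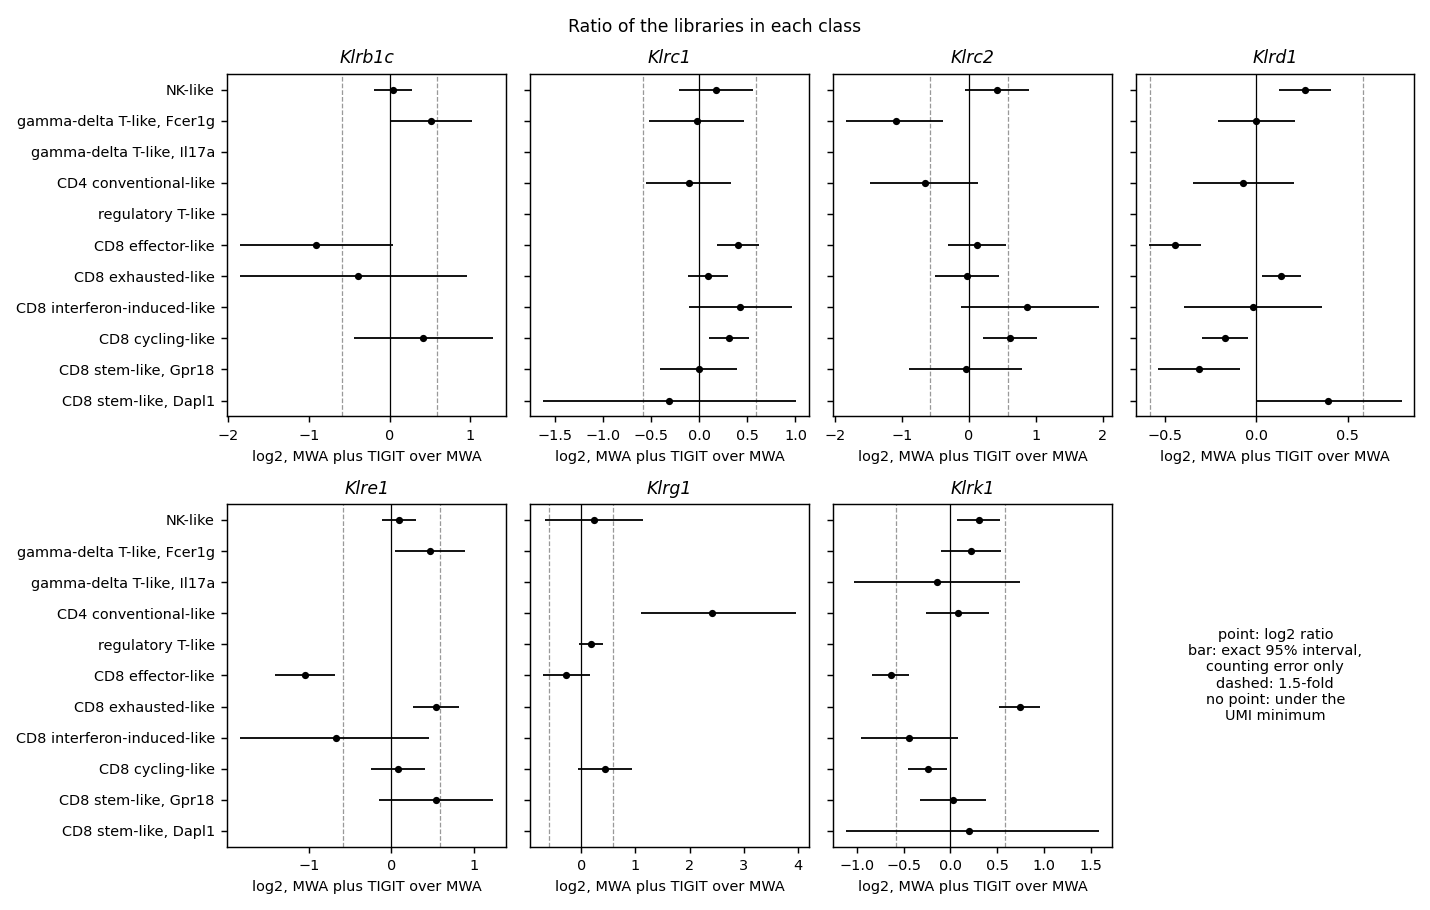
Log2 ratio of each gene, MWA plus TIGIT over MWA, in each class with at least 20 UMIs over both libraries. Points are ratios of summed levels, bars exact 95% intervals and dashed lines 1.5-fold; Klrk1 lies at −0.64 in CD8 effector-like and 0.74 in CD8 exhausted-like cells.

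Of the 19 other Klr genes, 11 reached 20 CPM in NK-like cells. The Klra genes encode Ly49 receptors for class I molecules, and Klra7 was the highest of them, with 235 and 341 CPM, followed by Klra4 with 227 and 254 CPM, Klra8 with 194 and 223 CPM and Klra9 with 138 and 230 CPM. Klra5 held 83.6 and 45.6 CPM, Klra3 82.5 and 76.6 CPM and Klra1 56.9 and 103 CPM. These genes are alike in sequence, so the division of UMIs among them is uncertain. In the Klrb1 family Klrb1b held 172 and 258 CPM, Klrb1f 115 and 161 CPM and Klrb1a 81.3 and 119 CPM. Klri2, the partner of Klre1, held 83.6 and 139 CPM, while Klri1, the other partner, held 1 and 3 UMIs.

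Of 11 other lectin-like receptors measured in NK-like cells, 3 were past 1.5-fold higher in the MWA plus TIGIT library and 1 lower, where 12.9% and 6.84% of all genes in these cells were, and 3.08% and 0.80% of those with at least 100 UMIs. Klra1 had a log2 ratio of 0.85 (0.29 to 1.42), Klra9 of 0.73 (0.37 to 1.098), Klri2 of 0.73 (0.26 to 1.20) and Klra5 of −0.87 (−1.56 to −0.23). Of 16 adaptor and signalling genes 1 was higher and 2 lower, numbers near those shares of all genes, and only the kinase gene Zap70, at 0.68 (0.10 to 1.26), had an interval excluding 0 among these 3. None of 7 measured ligand genes was past 1.5-fold. Of 13 effector and memory genes 2 were higher and 1 lower, with Prf1, the perforin gene, at 219.6 and 355 CPM and a log2 ratio of 0.69 (0.41 to 0.98), and Il7r, a cytokine receptor gene, on 20 and 5 UMIs, at −1.51 (−3.28 to −0.05). With TMM factors Zap70 stood at 0.54 with an interval that included 0, Prf1 at 0.56, below 1.5-fold, and Cd247, 1 of the 2 lower adaptor genes, at −0.82 with an interval that excluded 0.

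In CD8 exhausted-like cells, the CD8 class with the highest summed member level, Klra5 was the single other lectin-like receptor past 1.5-fold among 4 measured, at −0.67 (−1.31 to −0.05). Of 14 adaptor genes 1 was past 1.5-fold higher, the phosphatase gene Ptpn11, with 18.1 and 44.5 CPM and a log2 ratio of 1.29 (0.64 to 1.98). Of 8 ligand genes 2 were higher. Clec2d, a ligand gene of the Klrb1 family, held 68.4 and 115 CPM, with a log2 ratio of 0.75 (0.39 to 1.11), and Clec2i stood at 1.22 (0.29 to 2.21) on 16 and 28 UMIs. Of 13 effector and memory genes 6 were higher and 1 lower, where 13.6% and 3.76% of all genes in these cells were. The fractalkine receptor gene Cx3cr1 stood at 1.00 (0.60 to 1.41), the transcription factor gene Zeb2 at 0.93 (0.43 to 1.43), Il7r at 0.73 (0.35 to 1.12) and Gzma at −0.85 (−1.24 to −0.48). With TMM factors 3 of these 13 genes were past 1.5-fold higher and 1 lower, since Il7r, at 0.58, Itga1, at 0.51, and Tbx21, at 0.47, came below it.

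The adaptors through which activating members signal followed the classes differently. Tyrobp, which encodes DAP12, held 1969 and 1977 CPM in NK-like cells and 59.1 to 215 CPM in the T cell classes. B-like cells held 200.2 and 90.3 CPM of it and macrophage-like cells 2688 and 2609 CPM. Of the T cell classes only the Fcer1g γδ T-like cells of the MWA plus TIGIT library, at 182 CPM (147–223), lay above the B-like interval of their library (55.1–139), and the part of free RNA in these levels was not tested. Hcst, which encodes DAP10, was present in all 11 classes, with 779 and 729 CPM in NK-like cells and 1586 and 1611 CPM in CD8 effector-like cells. H2-T23, which encodes Qa-1, lay between 176 and 575 CPM in the 11 classes and was highest in CD8 interferon-induced-like cells of the MWA plus TIGIT library, at 575 CPM (515–639), against 408 CPM (354–469) in the MWA library.

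The pattern of each member over the 22 combinations of class and library was compared with 10624 genes by Pearson's r of log2(CPM + 1). These points share libraries and cells, so r is a description. For Klrd1 the 3 most alike genes outside the family were B4galnt1 (r = 0.91), Tm6sf1 (0.91) and Samd3 (0.91), and for Klrc1 Tm6sf1 (0.95), Slamf7 (0.93) and Runx3 (0.93). Runx3 encodes a transcription factor of CD8 T and NK cells. It was also the most alike for Klrc2 (0.96, followed by Zyx at 0.92 and Efhd2 at 0.91) and for Klrk1 (0.91, followed by Sema4a at 0.91 and Gm14029 at 0.90). For Klre1 they were Xcl1 (0.93), Cd160 (0.93) and Spry2 (0.90), for Klrb1c Gm11714 (0.94), Fcer1g (0.92) and Sulf2 (0.88), and for Klrg1 Pycard (0.83), Anxa4 (0.82) and Bloc1s1 (0.81). By Spearman's rank correlation Runx3 stayed among the 3 most alike for Klrc1 and Klrc2, while those of Klrk1 became Zyx, Chsy1 and Efhd2, with Runx3 at 0.89, and none of the 3 for Klrd1 stayed. Among the 21 pairs of members r ran from −0.23 to 0.95 with a median of 0.81. The highest was Klrc1 with Klrc2, whose counts can mix, and Klrd1 with Klrg1 was the lowest.

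All 7 genes lie on chromosome 6 of the mouse build GRCm38. Klrb1c, Klre1, Klrd1, Klrk1, Klrc2 and Klrc1 lie within 900 kb, from 128778485 to 129678973. Klre1 and Klrd1 are neighbors on the plus strand, at chr6:129577905-129585827 and chr6:129591782-129598775. Klrk1, at chr6:129610323-129623864, Klrc2, at chr6:129647496-129660689, and Klrc1, at chr6:129666015-129678973, follow on the minus strand. Klrg1, whose pattern over the classes was unlike the others, lies apart at chr6:122270596-122282882, 6.50 Mb away.

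**Figure D3:**
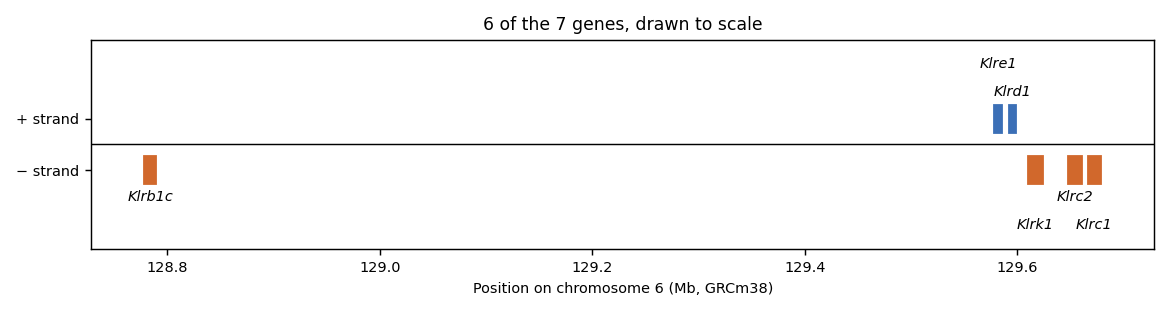
Positions of 6 of the 7 genes on chromosome 6 of GRCm38, drawn to scale, with plus strand genes above and minus strand genes below the line. They span 900 kb; Klrg1, 6.50 Mb away, is not drawn.

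Since Klrc1, Klrc2, Klrk1 and Klre1 had like patterns over the classes, the 250 bases before their starts were read from RefSeq for GRCm38.p6 and searched on both strands for 3 motifs of factors active in NK and T cells. The table held 5 of the 7 members, and Klrd1 and Klrg1 have no entry. The Runx motif TGTGGT, read as ACCACA on the other strand, occurred in 6 of the 7 windows of these genes, of which the 2 of Klrc2 and the 2 of Klre1 overlap, and in 14.0% of 32851 windows of this length. The T-box motif AGGTGT, or ACACCT, occurred in 0 of the 7, and in 11.8% of all windows. The Ets motif CCGGAA, or TTCCGG, occurred in 0 of the 7, and in 12.03% of all windows. A match is a run of letters and not a shown binding site. Klrb1c is counted here, though it was not among the genes that prompted the search. The genes belong to the same family, so their windows are not independent draws, and enrichment was not tested. Shown 5′ to 3′, with the Runx letters in capitals, are the windows of Klrk1, at chr6:129623865-129624114 on the minus strand, whose ratio had opposite signs in CD8 exhausted-like and effector-like cells, and of Klre1, at chr6:129577963-129578212 on the plus strand, which lay at 4.44 CPM in CD8 effector-like cells with Trav16. The windows of Klre1 and Klrb1c lie inside, and those of Klrc2 partly inside, the genes as placed by the annotation used for the positions above. The other Klre1 window in the table holds 0 Runx motifs.
Klrk1: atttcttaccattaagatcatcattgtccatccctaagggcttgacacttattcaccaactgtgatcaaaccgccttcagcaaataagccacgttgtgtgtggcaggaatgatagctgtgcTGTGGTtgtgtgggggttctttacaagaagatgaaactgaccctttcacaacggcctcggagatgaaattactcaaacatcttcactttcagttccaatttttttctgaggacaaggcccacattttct
Klre1: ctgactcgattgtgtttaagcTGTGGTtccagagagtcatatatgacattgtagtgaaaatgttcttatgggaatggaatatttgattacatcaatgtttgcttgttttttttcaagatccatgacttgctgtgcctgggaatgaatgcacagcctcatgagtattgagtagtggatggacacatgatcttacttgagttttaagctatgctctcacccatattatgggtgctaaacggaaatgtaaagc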

How the data were processed

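The authors deposited raw UMI counts per gene and barcode for both libraries; the submitters' processing notes name Cell Ranger 6.1.1 and the file headers 4.0.0, on the mouse build mm10. Barcodes needed 200 genes and no more than 10% of UMIs from mitochondrial genes, and doublets, called from simulated sums of 2 barcodes, were removed at 0.8% per 1000 barcodes (806 and 786). Integration and clustering ran in R 4.3.3 with its package Seurat 5.3.0 (2000 variable and 3000 integration features, 40 dimensions, resolution 0.1, then 1 for T and NK cells, 0.5 for CD8 and 1.5 for dendritic cells). The last resolution, the naming minimum of 2 leading and 3 detected markers and the CD8 minimum were set after clusters had been seen. The study's upper limit of UMIs per cell, which 55.2% and 60.3% of barcodes exceed, was an alternative.

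UMIs were summed per class and library and given as CPM with exact Poisson intervals. Library ratios, as log2, have exact conditional binomial intervals, tested on simulated data, and were taken at 20 or more UMIs over both libraries. Shares have exact binomial intervals. Python 3.11.15, numpy 2.4.6, scipy 1.17.1, pandas 2.3.3 and edgeR 4.0.16 (TMM factors) were used. Alternatives were another scaling, UMI, doublet and mitochondrial limits, marker gates, other features and resolutions, and cells without Trav16.

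All 7 members are named. From 4 gene lists, genes past 1.5-fold whose interval excludes 0 in NK-like or CD8 exhausted-like cells are named, up to 4 a list. Other Klr genes are named from 20 CPM in NK-like cells, and the 3 genes most like each member by r. Members and lists were chosen with earlier results of these data known.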

Additional observations from a re-analysis of the deposited data

Results flagged for a closer look

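For 4 genes the ratio of the libraries, MWA plus TIGIT over MWA, lay below 0 in at least 1 NK or T cell class and above 0 in at least 1 other, with intervals excluding 0. The share of all genes that meet this rule is not given here, so the count is a description of the members only. The lowest and highest such class of each gene are compared. Each class has 1 library per group, so the differences were not tested. Klrk1 stood at −0.64 in CD8 effector-like and 0.74 in CD8 exhausted-like cells, a difference of 1.38 on the log2 scale. Klre1 stood at −1.05 and 0.54 in the same classes, a difference of 1.59. Klrd1 stood at −0.45 in CD8 effector-like and 0.27 in NK-like cells, a difference of 0.71, where the NK-like interval includes 0 with TMM factors. Klrd1 also lay below 0 in CD8 cycling-like and Gpr18 stem-like cells, at −0.17 and −0.32, and above 0 in CD8 exhausted-like cells, at 0.14. Klrk1 also lay below 0 in CD8 cycling-like cells, at −0.24, and above 0 in NK-like cells, at 0.30. Klre1 also lay above 0 in Fcer1g γδ T-like cells, at 0.46, where the interval includes 0 with TMM factors, as does that of Klrk1 in NK-like cells and of Klrd1 in CD8 exhausted-like cells. Klrc2 stood at −1.09 in Fcer1g γδ T-like and 0.61 in CD8 cycling-like cells, a difference of 1.70. Without the cells that hold a Trav16 UMI the CD8 effector-like values were −0.40 for Klrk1, −0.44 for Klre1 and −0.18 for Klrd1, and the intervals of Klrd1 and Klrk1 in CD8 cycling-like cells included 0. Other classes moved the other way. In CD8 interferon-induced-like cells the members with intervals below 0 went from 0 to 2 when these cells were left out. In CD8 exhausted-like cells the members past 1.5-fold higher went from 1 to 2. For all genes, the matching shares without the cells that hold a Trav16 UMI are not given here.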

How the results depend on the processing

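No paired analysis was possible because each group had 1 library. Over all alternatives, 468 of 497 log2 ratios of members stayed within the interval of the reported value, 28 left it and 1 changed sign after its interval had excluded 0: Klrd1 in CD8 exhausted-like cells, −0.017 with TMM factors. Some alternatives hardly changed the cells, so their ratios could hardly move. The limit of 5% mitochondrial UMIs kept at least 98.6% of each class and moved 0 of 60 ratios. The study's upper limit of UMIs per cell moved 11 of 58, and leaving out cells with a Trav16 UMI 7 of 59. Without cells that hold a Trav16 UMI the CD8 effector-like ratios were −0.44 for Klre1 and −0.40 for Klrk1. In the finer clusters of that class, an alternative chosen after seeing the data, Klre1 stood at −1.62 in the first and −0.86 (−1.28 to −0.45) in the second, and Klrk1 at −1.01 in the first and −0.22 (−0.50 to 0.07) in the second, where the interval includes 0. Klrc2 stood at 0.75 (0.09 to 1.46) in the first and −0.46 (−1.09 to 0.18) in the second, against 0.12 reported. Klrc1 stood at 0.20 (−0.11 to 0.51) in the first and 0.59 (0.27 to 0.91) in the second, against 0.40 reported. Klrk1 in that class was past 1.5-fold in 7 of 10 alternatives, and in CD8 exhausted-like cells in 7 of 8. Leaving out the barcodes found in both libraries, also chosen after seeing the data, kept 59 of 59 ratios within their intervals. With CD4 cells taken by single marker genes Klrg1 stood at 0.18 on 59 and 75 UMIs, where that gate takes cells without a Foxp3 UMI. The cause was not tested.

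Thinned to 2000 UMIs, the share with Klrc2 was higher among cells with Klrd1 in 14 combinations of class and library, and the share with Klrk1 stood apart in 8. With at least 100 UMIs a gene, 3.08% and 0.80% of genes were past 1.5-fold higher and lower in NK-like, 3.19% and 1.43% in CD8 effector-like and 5.25% and 0.77% in CD8 exhausted-like cells. With at least 1 UMI in each library these shares were 19.4% and 12.2%, 12.9% and 14.9%, and 19.7% and 7.51%.

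Of 560 levels, 344 stayed within their interval and 216 left it, 115 of these after cells with a UMI of 6 B, myeloid and neutrophil genes were left out, which removed 83.5% to 92.5% of the cells of a class. Of 154 thinned shares 75 left their interval at 2000 UMIs.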

Other observations

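Outside NK and T cells, some members were found in dendritic-like classes. Klrd1 held 506 CPM (415–611) in 33 type 2 dendritic-like cells of the MWA library and 632 CPM (551–721) in 44 of the MWA plus TIGIT library, a level that overlapped between the libraries. It lay at 183 and 86.9 CPM in mature, 91.4 and 69.8 CPM in type 1 and 338 and 165 CPM in plasmacytoid dendritic-like cells, of which there were 8 and 9. In mature dendritic-like cells this was a log2 ratio of −1.08 (−1.94 to −0.25), on 36 and 20 UMIs. The partner genes Klrc1 and Klrc2 held at most 1 UMI in any of these classes and libraries. Macrophage-like cells held 3.43 and 1.37 CPM of Klrd1. In type 2 dendritic-like cells 43.8% and 47.7% of thinned cells had a Klrd1 UMI, against 0% and 1.64% of B-like cells.

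Klrk1 held 119 and 90.8 CPM in type 1 and 98.4 and 183 CPM in type 2 dendritic-like cells, the latter with a log2 ratio of 0.89 (0.16 to 1.68), and Klrb1b, an inhibitory receptor gene of the Klrb1 family, 201 and 147 CPM in type 1 and 32.8 CPM (13.2–67.6) and 127 CPM (92.6–171) in type 2 dendritic-like cells, the latter with intervals apart.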
